A study of Homo sapiens with 6 samples.

Results

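Kinases of SR proteins were followed at the level of splicing in NCI-H1975 cells, an established human lung adenocarcinoma (LUAD) cell line, after overexpression of SAM68. The group comprised 7 genes chosen by name: CLK1, CLK2, CLK3, CLK4, SRPK1, SRPK2 and DYRK1A. The tables listed 74 alternative splicing (AS) events in these genes. Of these, 58 had a mean of at least 10 junction reads over the 6 libraries and were tested, of 66395 such events among the 78223 that could be read. The tested event with the fewest reads had a mean of 10.5 (CLK1) and the most deeply read event left out had 9.5 (SRPK1).

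Cells received the PCDNA3.1-SAM68 plasmid or the empty PCDNA3.1 plasmid as control, 2 µg per well with a lipofectamine reagent, and 3 biological replicates of each group were harvested after 48 h. All 6 libraries came from this 1 cell line. SAM68, encoded by KHDRBS1, is an RNA-binding splicing regulator. Depth was 16951876 to 19737729 junction reads per library over the skipped exon events, where 1 read can count more than once. Junction reads of KHDRBS1 amounted to 311, 329 and 316 reads per 1000000 (rpm) in controls, against 1232, 1261 and 1277 rpm after SAM68 transfection. This is a log2 fold change of 1.98 (SE 0.05, adjusted p = 1.15e-21, limma), and reads of the plasmid and of the gene were not told apart. Of 10 epithelial markers, 3 had enough junction reads to be measured, and none was called by limma. KRT7 stood at 4.49, 3.03 and 3.52 rpm in controls and lower, at 1.26, 1.84 and 2.20 rpm, in SAM68 libraries (log2 fold change −0.89, adjusted p = 0.383, limma). KRT8 stood at 520, 253 and 237 rpm in controls, of which the first lay apart, and at 248, 235 and 230 rpm in SAM68 libraries (log2 fold change −0.41, adjusted p = 0.254, limma). KRT18 stood at 471 to 493 rpm in controls and at 521 to 531 rpm in SAM68 libraries (log2 fold change 0.12, adjusted p = 0.306, limma). The part of these levels in the splicing results was not tested. Of 6 markers of other cells, VIM alone was measured, at 4033 to 4320 rpm. The tables list AS events and not all genes, so a marker without events was not assessed.

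SR proteins are splicing factors with a domain rich in arginine and serine, whose phosphorylation sets where they are in the cell and how they act on pre-mRNA. SRPK1 and SRPK2 act mainly in the cytoplasm and prepare SR proteins for import into the nucleus. CLK1 to CLK4 act in the nucleus and release SR proteins from nuclear speckles. DYRK1A, whose gene lies on chromosome 21, belongs to a neighbouring kinase family and also phosphorylates SR proteins. The CLK genes are themselves known for alternative splicing of exon 4 and of the introns beside it. Skipping of that exon shifts the reading frame ahead of the kinase domain.

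In GENCODE 44 on GRCh38, CLK1 lies at chr2:200853009-200864691, CLK2 at chr1:155262868-155278491, CLK3 at chr15:74598500-74645414 and CLK4 at chr5:178602664-178630615. SRPK1 lies at chr6:35832966-35921342, SRPK2 at chr7:105110704-105399308 and DYRK1A at chr21:37365573-37526358. CLK3 and DYRK1A are on the plus strand and the other 5 on the minus strand. Exons are numbered on the canonical transcript of each gene.

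The coding exon 4 of the CLK genes is shown first, because its inclusion decides whether a CLK transcript keeps its reading frame. Capitals mark the exon, with 20 nt of intron before and 6 nt after it, 5ʹ to 3ʹ on the sense strand of GRCh38. The exons lie at chr2:200860125-200860215 (CLK1, minus strand, 91 nt), chr1:155268708-155268795 (CLK2, minus, 88 nt), chr15:74622120-74622216 (CLK3, plus, 97 nt) and chr5:178617344-178617434 (CLK4, minus, 91 nt).
CLK1 exon 4: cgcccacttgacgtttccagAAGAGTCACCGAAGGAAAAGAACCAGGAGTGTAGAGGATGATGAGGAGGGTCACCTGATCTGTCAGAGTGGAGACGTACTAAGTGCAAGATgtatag
CLK2 exon 4: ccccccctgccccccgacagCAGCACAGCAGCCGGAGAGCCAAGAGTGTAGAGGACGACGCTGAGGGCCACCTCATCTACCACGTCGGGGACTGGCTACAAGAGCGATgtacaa
CLK3 exon 4: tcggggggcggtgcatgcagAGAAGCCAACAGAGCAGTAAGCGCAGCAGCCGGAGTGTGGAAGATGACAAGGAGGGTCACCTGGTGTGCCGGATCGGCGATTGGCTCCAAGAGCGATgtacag
CLK4 exon 4: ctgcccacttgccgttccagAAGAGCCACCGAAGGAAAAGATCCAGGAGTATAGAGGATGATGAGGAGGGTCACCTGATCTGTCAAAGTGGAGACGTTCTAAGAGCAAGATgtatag
Each of the 4 lengths leaves 1 base over a multiple of 3. CLK1 and CLK4 shared 85 of 91 aligned bases (93.4%), and the other 5 pairs shared 64.6% to 67.4%.

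The other sequences are those of 2 exons whose inclusion reads were more frequent in SAM68 libraries and of 3 acceptors with close alternatives. The CLK4 exon of 59 nt lies in intron 2 at chr5:178619838-178619896 (minus strand), and the SRPK2 exon of 64 nt lies in intron 2 at chr7:105268806-105268869 (minus strand). Capitals mark these exons, with the same flanks as above.
CLK4 59 nt exon: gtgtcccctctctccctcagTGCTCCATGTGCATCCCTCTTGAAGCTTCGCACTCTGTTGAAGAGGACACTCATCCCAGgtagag
SRPK2 64 nt exon: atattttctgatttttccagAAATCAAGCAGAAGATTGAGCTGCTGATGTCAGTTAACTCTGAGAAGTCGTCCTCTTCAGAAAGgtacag
In the acceptors, capitals mark the bases that only the longer form keeps. These are chr1:155269714-155269716 (CLK2 exon 3, minus strand), chr1:155268793-155268795 (CLK2 exon 4, minus strand) and chr21:37478181-37478207 (DYRK1A, plus strand).
CLK2 acceptor of exon 3: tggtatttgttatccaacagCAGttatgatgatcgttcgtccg
CLK2 acceptor of exon 4: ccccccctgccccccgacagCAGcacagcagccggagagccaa
DYRK1A acceptor: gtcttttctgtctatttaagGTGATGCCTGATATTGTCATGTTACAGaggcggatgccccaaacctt
Both CLK2 acceptors repeat the letters CAG, so that the acceptors lie 3 nt apart.

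Percent spliced in (PSI) is the share of the inclusion form, from junction reads divided by the effective length of each form, and ∆PSI is SAM68 minus control in percentage points. Calls required a ∆PSI of at least 10 points in either direction and an adjusted p under 0.05 (quasi-binomial model, Benjamini-Hochberg within the event type). By this rule none of the 58 kinase events was called, against 18 of 66395 events in all (0.0271%). At an unadjusted p under 0.05 there were 7 of 58 kinase events (12.1%), against 8.46% of all events. In 7 of 58 kinase events the PSI of the groups did not overlap, against 6.1% of all events. Some of these 7 events share reads with each other. PSI was higher in SAM68 libraries in 27 events and lower in 31. The median size of ∆PSI was 2.35 points, against 1.24 points over all tested events. A mean PSI between 5% and 95% was found in 23 kinase events (39.7%) and in 32.3% of all events.

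**Figure D1:**
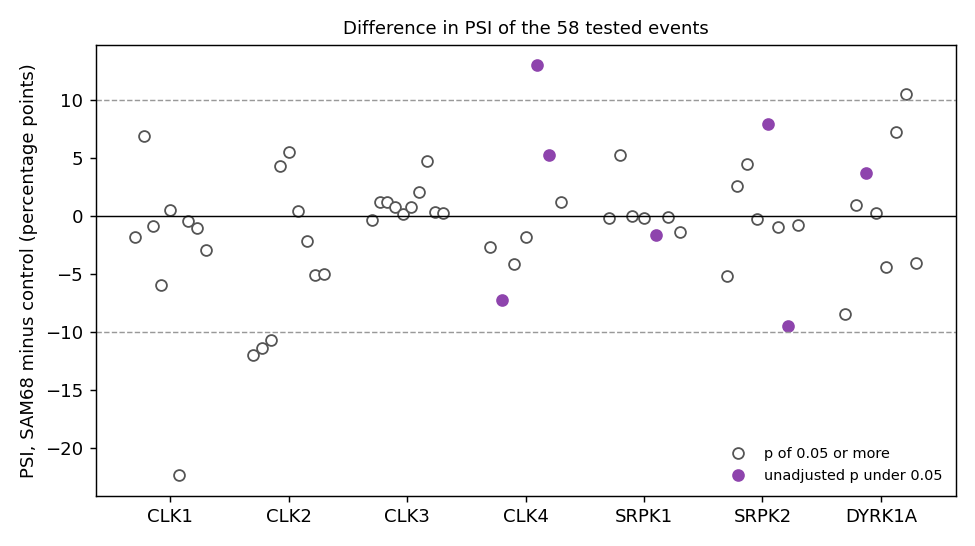
Difference in PSI (vertical axis, percentage points, SAM68 minus control) of the 58 tested events, by gene. Each point is an event, filled where the unadjusted p was under 0.05 (7 events), and dashed lines mark 10 points in either direction. The CLK4 exon of 59 nt lies highest at 12.98 points, and CLK3 events lie within 4.69 points of 0.

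Exon 4 was mostly included in all 4 CLK transcripts, in both groups. In CLK1, PSI of exon 4 was 90.9%, 84.9% and 98.5% in controls and 79.5%, 95.2% and 90.8% in SAM68 libraries (∆PSI −2.93 points, adjusted p = 0.567). The CLK1 groups overlapped, and the sign of the difference depended on which library was left out (−6.28 to 1.56 points). In CLK2, PSI was 87.0%, 91.7% and 95.5% in controls and 86.6%, 82.4% and 90.3% in SAM68 libraries (∆PSI −4.99 points, adjusted p = 0.571). This was −2.94 points without the third control library and −2.96 points without the second SAM68 library.

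CLK3 and CLK4 skipped exon 4 least. PSI in CLK3 was 95.3%, 100% and 100% in controls and 100%, 100% and 97.5% in SAM68 libraries (adjusted p = 0.602). In CLK4 it was 92.0%, 100% and 100% in controls and 95.1%, 91.5% and 100% in SAM68 libraries (adjusted p = 0.567). These groups overlapped too, and both differences changed sign when 1 library was left out. GENCODE lists the skipping form of exon 4 in a transcript marked for nonsense-mediated decay for CLK1, CLK3 and CLK4, and for CLK3 in protein-coding transcripts as well.

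**Figure D2:**
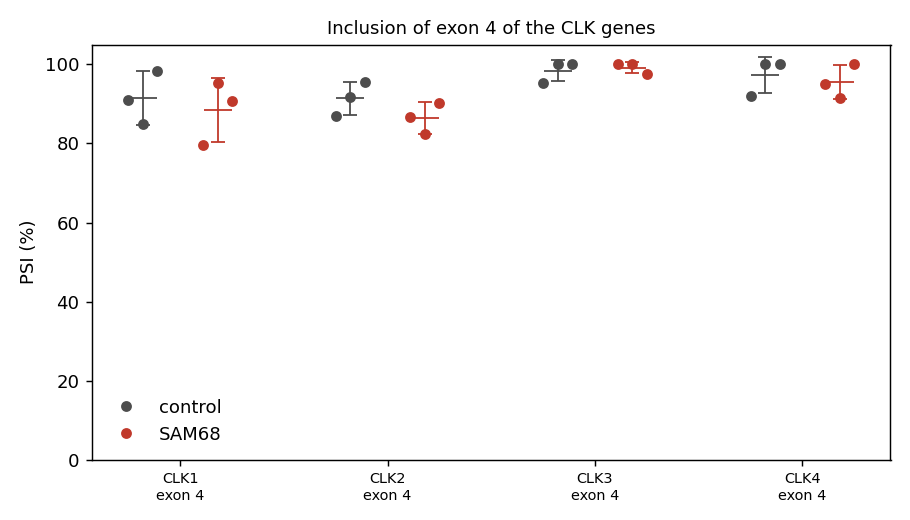
PSI of exon 4 (vertical axis, %) of CLK1 to CLK4 in 3 control and 3 SAM68 libraries. Points are libraries, and bars are the mean and SD. Means lie between 86.4% (CLK2, SAM68) and 99.2% (CLK3, SAM68), and the groups overlap in each gene.

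Intron retention around exon 4 was measured in CLK1, CLK3 and CLK4. The CLK1 event compares the unspliced stretch from intron 3 through exon 4 and intron 4 (1491 nt) with the form that skips it all, and so shares its skipping reads with the exon 4 event. Its PSI was 54.3%, 44.7% and 90.9% in controls and 30%, 66.7% and 26.3% in SAM68 libraries, at a mean of 24.7 reads. The control library at 90.9% had 20 inclusion reads and 1 skipping read. This PSI leaves out the form with exon 4 spliced in, and so is no share of all CLK1 transcripts. That form had 136, 124 and 108 reads in controls and 138, 101 and 117 in SAM68 libraries. The difference of −22.3 points was the largest among the kinase events, but 1 control library stood far above the others and the groups overlapped (p = 0.070 in the quasi-binomial model, adjusted p = 0.594). Without that control library it was −8.49 points, and without the second SAM68 library −35.1 points.

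In CLK4, intron 4 (395 nt) had a PSI of 9.80%, 13.6% and 3.30% in controls and 0%, 0% and 5% in SAM68 libraries. This was 14 reads of the intron-exon boundaries among 100 reads in controls and 2 among 80 in SAM68 libraries (∆PSI −7.25 points, unadjusted p = 0.037, adjusted p = 0.536, quasi-binomial model). The third library of each list put the groups in overlap. From reads not divided by effective lengths, ∆PSI was −12.9 points, past the limit of 10 points but with the same adjusted p. Retention of introns 3 and 4 of CLK3 was at or under 1.42% in every library. The events that compare the donors of exons 3 and 4 gave the form with exon 4 a share of 91.2% to 100% in CLK3 and of 84.2% to 100% in CLK4.

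The kinase event with the smallest p was a cassette exon of 59 nt in intron 2 of CLK4. None of the 3 control libraries held a read of it, against 39, 50 and 46 reads of the skipping form. The SAM68 libraries held 4, 7 and 8 inclusion reads, against 35, 31 and 25 skipping reads. PSI was thus 0% in each control library and 7.32%, 13.5% and 18.1% in the SAM68 libraries, and the groups did not overlap. The 135 control reads allow a share of reads of up to 2.22% (3 reads, counting error only). ∆PSI was 12.98 points, with p = 6.97e-05 and an adjusted p of 0.114 in the quasi-binomial model over all skipped exon events. An exact two-sided permutation test of the 6 PSI values gave p = 0.1, the smallest that 3 against 3 libraries allow.

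The call of the CLK4 exon turned on how the spread was handled. It was called when the spread was set to at least 1 before moderation (adjusted p = 0.0363), a setting that called 0.142% of all events. There, all skipped exon events took 1 common dispersion (2.02), so the spread of this event itself played no part. The CLK4 exon was also called by a likelihood ratio test on pooled counts (adjusted p = 7.51e-06). That test ignores the spread between libraries and called 2.04% of all events. In both settings it was the sole kinase event called. Summing the events that share an exon also put it past the limits (∆PSI 19.4 points, with 0.0328% of all events called), but this sum counts the 10 reads of the donor of this exon in SAM68 libraries separately in each of its 2 events and is no separate support for a call.

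GENCODE places the 59 nt exon in 2 CLK4 transcripts, both marked as retained intron, and its length leaves 2 bases over a multiple of 3. A longer form of 836 nt uses the same donor with an acceptor further upstream (chr5:178619838-178620673) and stands in a transcript marked for nonsense-mediated decay. PSI of the longer form was 1.27%, 1.96% and 0% in controls and 5.41%, 6.06% and 7.41% in SAM68 libraries (∆PSI 5.22 points, unadjusted p = 0.0165, adjusted p = 0.506, quasi-binomial model). From reads not divided by effective lengths its ∆PSI was 9.71 points. The groups did not overlap, but both forms count the reads that join the shared donor to exon 3.

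The events with 2 alternative acceptors allow these reads to be separated. Reads that joined exon 2 to the acceptor of the 59 nt form were 0, 0 and 0 in controls and 0, 4 and 5 in SAM68 libraries. Reads at the acceptor of the 836 nt form were 1, 2 and 0 in controls and 0, 1 and 1 in SAM68 libraries. The remainder, at the shared donor, was 0, 0 and 0 in controls and 4, 3 and 3 in SAM68 libraries, and came out the same from 4 pairs of events. The same 10 reads of the shared donor thus stand among the 19 inclusion reads of the 59 nt form and among the 12 of the longer form in SAM68 libraries. From exon 2 to its own acceptor, the 59 nt form had 0 reads in controls and 9 in SAM68 libraries. The longer form had 3 and 2. In the first SAM68 library all 4 inclusion reads of either form were reads of the shared donor, so that its PSI of 7.32%, and with it the lack of overlap for the 59 nt form, rests on reads that either form could give. By reads that joined exon 2 to the acceptor of the 59 nt form, that library stood at 0 like the controls. Another exon of 67 nt in the same intron (chr5:178622393-178622459) had a PSI of at most 5.38% in any library. Reads that joined it to the acceptor of the 59 nt form were 0, 0 and 0 in controls and 1, 0 and 1 in SAM68 libraries. The first SAM68 library thus held 1 read at that acceptor.

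**Figure D3:**
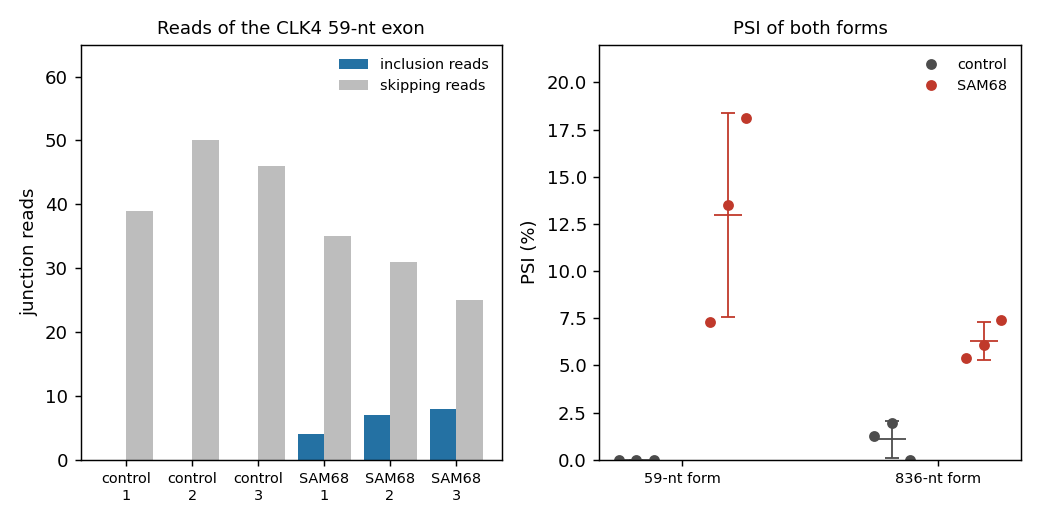
Left, inclusion and skipping junction reads (vertical axis) of the CLK4 exon of 59 nt in each library, in the order of the deposited lists. Right, PSI (%) of the 59 nt and 836 nt forms, with libraries as points and mean and SD as bars. Inclusion reads of the 59 nt form are 0 in the 3 controls and 4, 7 and 8 in the SAM68 libraries.

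SAM68 is known to bind RNA at the letters UAAA. The 59 nt exon holds no UAAA, the 250 nt before it hold 2 and the 250 nt after it hold 1. Over the 34 different exons of tested kinase skipped exon events, UAAA on the sense strand was present in 58.82% of the windows before the exon, 20.59% of the exons and 85.29% of the windows after it. Over all 38685 exons these shares were 64.82%, 30.78% and 65.44%. The longer UUAAA, each of which contains a UAAA, was present in 41.18%, 14.71% and 44.12% for the kinases and in 40.8%, 12.1% and 40.44% for all exons. Exons of 1 gene lie near each other and their windows can overlap.

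In CLK2, both events with acceptors 3 nt apart used the longer form less in SAM68 libraries on average. At exon 3, the longer form made up 71.6%, 74.7% and 83.7% in controls and 65.3%, 53.7% and 77.1% in SAM68 libraries (∆PSI −11.3 points, adjusted p = 0.670). That difference was −5.50 points without the second SAM68 library and −17.2 points without the third. At exon 4 it made up 73.2%, 81.2% and 88.7% in controls and 67.01%, 76.4% and 63.9% in SAM68 libraries (∆PSI −11.9 points, adjusted p = 0.670). Groups overlapped at both acceptors, and both forms keep the reading frame. The same acceptor splits CLK2 exon 4 into 2 skipped exon events, of 88 nt and 85 nt. The 85 nt form had a PSI of 82.0%, 85.9% and 90.1% in controls and 81.8%, 73.6% and 87.2% in SAM68 libraries.

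Exon 7 is a coding exon downstream of exon 4. PSI of CLK1 exon 7 was 99.3%, 98.6% and 98.7% in controls and 98.3%, 97.3% and 97.7% in SAM68 libraries. Although the groups did not overlap, the difference was −1.06 points (adjusted p = 0.566). In CLK2, exon 7 had a PSI of 100% in each control library and 98.1%, 95.5% and 100% in SAM68 libraries against the form that joins exon 6 to exon 8, its most deeply read event. Against the form that joins exon 6 to exon 9, its PSI was 95.8%, 96.9% and 84.0% in controls and 100%, 87.8% and 90.2% in SAM68 libraries, with overlap (∆PSI 0.41 points, adjusted p = 0.983). As a mutually exclusive pair with exon 8, CLK2 exon 7 took 68.8%, 63.6% and 65.6% of the reads in controls and 63.3%, 57.8% and 45.0% in SAM68 libraries, without overlap (∆PSI −10.6 points, adjusted p = 0.719). Without the third SAM68 library the difference was −5.44 points. The corresponding values of CLK1 were 72.0%, 62.6% and 72.8% in controls and 66.2%, 66.4% and 57.2% in SAM68 libraries (adjusted p = 0.743). Since both exons of each pair were included in most transcripts, these shares compare the reads of 2 neighbouring exons that mostly stand in the same transcript. A further CLK1 event sets exon 6 joined to exon 7 against exon 6 joined to exon 8. Its PSI was 98.9%, 97.8% and 98.2% in controls and 97.3%, 95.9% and 96.4% in SAM68 libraries, without overlap (∆PSI −1.81 points, adjusted p = 0.708). Its skipping reads, 1, 2 and 2 in controls and 2, 3 and 2 in SAM68 libraries, are those of the CLK1 exon 7 event. It is thus no separate observation. Intron 7 of CLK1 was retained in no library but 1 SAM68 library (1.43%), and the share of the longer form in the event that compares the donors of exons 7 and 8 was 97.5% in 1 SAM68 library and 100% in the other 5 libraries. CLK3 exon 5 stood at 85.9% in 1 control and at 100% in the other 5 libraries, an acceptor 42 nt before CLK3 exon 3 took at most 2.47%, and CLK4 exon 10 stood at 87.7% in 1 SAM68 library and at 100% in the other 5.

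Of the SRPK genes, SRPK1 had the deepest events (means of 254 to 545 reads) and the smallest differences. PSI of exon 10, its most deeply read event, was 98.2%, 99.4% and 99.7% in controls and 96.6%, 99.6% and 96.1% in SAM68 libraries (unadjusted p = 0.0410, adjusted p = 0.566, quasi-binomial model). An exon of 96 nt in intron 2 (chr6:35904879-35904974), annotated in a transcript marked for nonsense-mediated decay, stood at 4.09%, 1.91% and 5.54% in controls and 3.60%, 1.57% and 2.31% in SAM68 libraries. As a mutually exclusive pair, exon 14 took 42.7%, 44.1% and 45.1% in controls and 48.9%, 48.9% and 49.7% in SAM68 libraries, without overlap (∆PSI 5.22 points, adjusted p = 0.670). Both exons of this pair, 14 and 15, had a PSI between 99.6% and 100% as skipped exons in every library. An acceptor 28 nt before exon 3 took at most 0.55% in any library.

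SRPK2 held the kinase event with the second smallest p, the 64 nt exon of intron 2. Inclusion reads were 10, 9 and 9 in controls and 30, 27 and 10 in SAM68 libraries, and skipping reads were 107, 128 and 121 in controls and 108, 84 and 119 in SAM68 libraries. PSI was 5.92%, 4.52% and 4.77% in controls and 15.8%, 17.8% and 5.36% in SAM68 libraries. Of the SAM68 libraries, 2 stood above all controls and the third within their range (∆PSI 7.90 points, p = 0.00364, adjusted p = 0.371, quasi-binomial model). The inclusion form is annotated in 2 protein-coding transcripts. The 250 nt before this exon hold 2 UAAA, and the exon and the 250 nt after it hold none.

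The SRPK2 exon of 93 nt in intron 15 (chr7:105125782-105125874), the SRPK2 event with a PSI nearest to 50% at 50 reads or more, did not separate the groups. Its PSI was 26.7%, 12.8% and 29.8% in controls and 28.1%, 32.0% and 16.9% in SAM68 libraries (adjusted p = 0.650). A rarely read pair of intron 2 exons, of 136 nt and 64 nt, had reads of the first in 1 library of each group (PSI 42.6% in a control and 27.1% in a SAM68 library, 0% in the others). Against exon 2 joined to the 64 nt exon, a 113 nt exon of the same intron had an unadjusted p of 0.0222 (quasi-binomial model). At a mean of 12.8 reads, its PSI there was 0%, 11.8% and 26.4% in controls and 0%, 0% and 9.70% in SAM68 libraries. The skipping reads of this event are also inclusion reads of the 64 nt exon. Against exon 2 joined to exon 3, at a mean of 113 reads, PSI of the 113 nt exon was 0%, 0% and 3.43% in controls and 0.49%, 0% and 0% in SAM68 libraries. That difference was −0.98 points (adjusted p = 0.566, quasi-binomial model). Exon 3 of SRPK2 was included at 95.6% or more in controls and 94.8% or more in SAM68 libraries.

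DYRK1A has acceptors 27 nt apart at its exon 4, and the longer form, which adds 27 nt and is annotated in 8 protein-coding transcripts, was the lesser form. It made up 30.3%, 31.5% and 31.0% in controls and 24.8%, 12.8% and 29.8% in SAM68 libraries. The groups did not overlap, but the SAM68 values were further apart than the difference of means (SD 8.73 points, ∆PSI −8.44 points, adjusted p = 0.679). Without the second SAM68 library the difference was −3.62 points. PSI of exon 2, the deepest skipped exon event, was 93.01%, 100% and 100% in controls and 89.7%, 100% and 90.1% in SAM68 libraries (adjusted p = 0.566). The donor of exon 3, with an alternative 51 nt upstream, was used at 97.2% or more. Among the rarely used exons of DYRK1A, 1 of 101 nt in intron 1 passed an unadjusted p of 0.05 on a single SAM68 library (p = 0.0471, quasi-binomial model). Its PSI was 1.08%, 0% and 0% in controls and 0%, 12.1% and 0% in SAM68 libraries. Another, of 132 nt in intron 2, stood at 18.5%, 0% and 11.1% in controls and 39.0%, 11.8% and 10.3% in SAM68 libraries. Those groups overlapped (∆PSI 10.5 points, adjusted p = 0.566, quasi-binomial model).

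**Figure D4:**
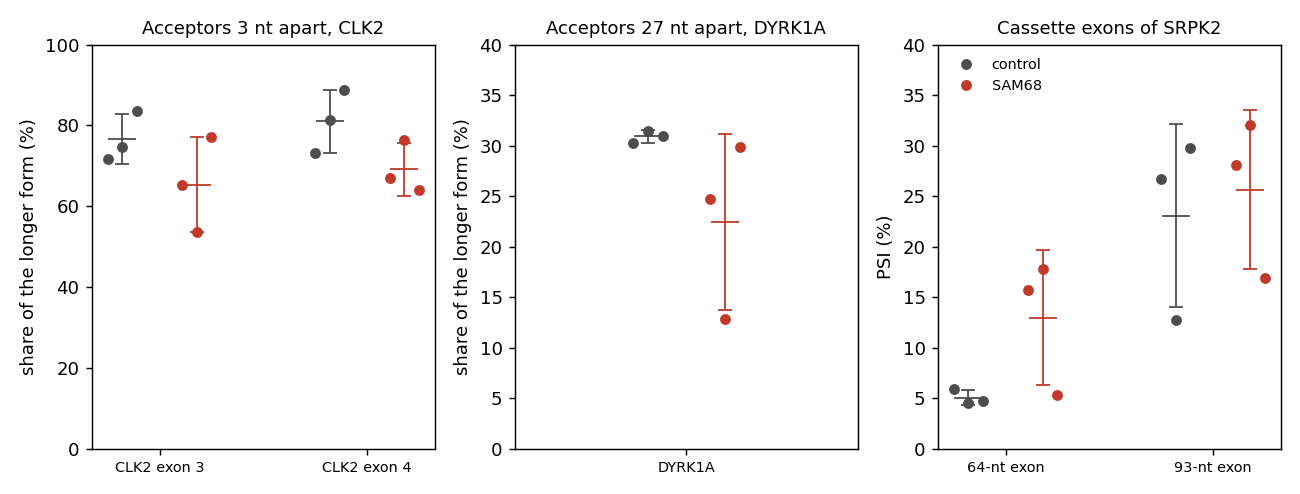
Share of the longer form at the CLK2 acceptors 3 nt apart (left) and the DYRK1A acceptors 27 nt apart (middle), and PSI of the 64 nt and 93 nt exons of SRPK2 (right), in %. Points are libraries, and bars are the mean and SD. The SRPK2 exon of 64 nt is at 4.52% to 5.92% in controls and at 5.36% to 17.8% in SAM68 libraries.

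Junction reads per gene were taken from the most deeply read event of each gene and scaled to 1000000 such reads. They are not divided by length and serve to compare libraries, not genes. None of the 7 kinases was called (adjusted p under 0.05 and a log2 fold change of at least 1, limma), against 5 of 10147 genes (0.0493%). CLK1 alone passed an unadjusted p of 0.05, as did 12.1% of all genes. CLK1 stood at 46.1, 45.9 and 52.9 rpm in controls and 37.7, 41.0 and 32.1 rpm in SAM68 libraries. Each SAM68 library was below each control (log2 fold change −0.39, 95% interval −0.64 to −0.13, adjusted p = 0.173, limma). When all skipped exon events of the gene were summed, the log2 fold change was −0.21. In bulk RNA, fewer cells with a transcript and less transcript per cell cannot be told apart.

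CLK4 had the fewest reads of the 7 genes, at 8.80, 8.60 and 9.04 rpm in controls and 8.06, 6.98 and 7.35 rpm in SAM68 libraries. These did not overlap, but the log2 fold change of −0.23 had a 95% interval from −0.73 to 0.27 (adjusted p = 0.758, limma). The log2 fold changes of the other 5 kinases lay between −0.17 (DYRK1A) and 0.17 (CLK2). Their intervals all included 0 and lay between −0.64 and 0.55. That of SRPK1, −0.14 with all libraries, was −0.32 without the third SAM68 library (adjusted p = 0.103, limma) and −0.013 without the first. That of CLK2 was 0.095 without the first control library and 0.26 without the second.

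The surroundings of these kinases were read from a list of 34 genes: 12 further kinases, 5 phosphatases and their regulators, 5 import factors and SR-like partners, and the 12 SRSF genes. Of 197 tested events in 31 of these genes, none was called, and 22 (11.2%) had an unadjusted p under 0.05, against 8.46% of all events. None of the 31 genes with enough junction reads was called. The largest log2 fold change among them was −0.62 in PRPF4B, a kinase of the spliceosome, with 34.9, 27.4 and 41.0 rpm in controls and 18.3, 24.4 and 23.3 rpm in SAM68 libraries (adjusted p = 0.0738, limma). The event with the smallest p was a retained intron of SRSF5, an SR protein that the kinases phosphorylate. Its PSI was 11.4%, 11.2% and 12.3% in controls and 8.85%, 8.31% and 7.58% in SAM68 libraries, without overlap (∆PSI −3.41 points, adjusted p = 0.0879).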

How the data were processed

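RNA of 3 control and 3 SAM68 libraries was sequenced by the authors with paired-end reads. Reads were cleaned with fastp and aligned to GRCh38 with hisat2, and events were listed with rMATS. The submitters' processing notes name CASAVA 1.4, fastp 0.20.0 and HISAT2 2.1.0. The authors deposited raw junction counts of both forms, 3 per group in 1 list without replicate numbers, with effective lengths. Their inclusion levels served to check the reading of the lists. Their p-value, FDR and difference of inclusion levels were not used. The list given first was taken as control, from the plots of the study. In the A3SS table a spreadsheet had regrouped digits in 275 events: 162 were recovered and 113 left out. A further 679, among them 1 of CLK3 and 1 of SRPK1, allowed another reading and were taken as printed.

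PSI was computed from counts and effective lengths, with MXE values for the exon nearer the 5ʹ end. A quasi-binomial model was fitted where the mean over 6 libraries reached 10 reads. Its dispersion was moderated within each type with squeezeVar of limma 3.58.1 (R 4.3.3) and then kept at 1 or more. Genes were tested on log2(rpm + 0.5) with limma, and fold changes are on that scale. Tests were checked on simulated data. Exons and sequences came from GENCODE 44 and hg38 with pysam 0.24.0. Of all exons checked, 99.9% were preceded by AG. Quasi-binomial and limma p-values weigh the spread between 3 libraries per group, drawn toward that of other events or genes. The likelihood ratio test does not use that spread.

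Members and lists were chosen with earlier results of these data known. Events were given in full where called, where p was under 0.05 with 10 points or more, where they had the most reads of their type in a gene, where they concerned exon 4 of a CLK gene or its introns, or where PSI was nearest 50% at a mean of at least 50 reads. Those near 0% or 100% are given by their range. Other events named were chosen after their values were seen. Of these, the SRPK2 exon of 113 nt against exon 2 joined to exon 3 and the DYRK1A exon of 132 nt are outside the 42 events followed below. Alternatives covered the spread, the test, the minimum of reads, the limits, effective lengths, shared exons, scaling and each library left out.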

Additional observations from a re-analysis of the deposited data

How the results depend on the processing

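The count of kinase events called stayed at 0 except for 1 (the CLK4 exon of 59 nt) with the spread set to at least 1 before moderation (added after seeing the data, ∆PSI 12.98 points), by the likelihood ratio test of pooled reads (12.98 points) and with events sharing an exon summed (19.4 points, where 10 reads are counted with each of 2 events). Without 1 library its ∆PSI was 10.4 to 15.8 points, never called. Of all events, 18 were called, against 2 with each event's own spread, 94 with the spread set first, 3 when limma tested the logit of PSI, 1354 with the likelihood ratio test, 30 with no minimum of reads, 41 with a limit of 5 points and 65 with none. Without 1 library it was 7 to 29, lowest without the first SAM68 library and highest without the second. Events called in the list of 34 genes were 0, but 5 with the likelihood ratio test and 1 with no minimum of reads. No kinase and no gene of that list was called by junction reads under any of 14 alternatives.

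Leaving out 1 library turned the sign of ∆PSI in 14 of 42 events described: CLK1 exon 4 (−6.28 to 1.56), the CLK3 acceptor of 42 nt (−0.87 to 0.36), the CLK3 donors of exons 3 and 4 (−1.73 to 2.92), CLK3 intron 4 (−0.034 to 0.68), CLK3 exon 4 (−0.82 to 1.57), the CLK4 donors of exons 3 and 4 (−7.56 to 1.49), CLK4 exon 4 (−4.44 to 0.22), the SRPK2 pair of exclusive exons (−14.2 to 9.02), the SRPK2 exon of 93 nt (−2.59 to 6.95), SRPK2 exon 3 (−1.72 to 1.46), CLK2 exon 7 against exon 6 joined to exon 9 (−3.71 to 2.87, and −0.94 with events sharing an exon summed), the CLK4 exon of 67 nt (−0.56 to 2.13), the DYRK1A exon of 101 nt (−0.36 to 5.67) and SRPK1 exon 15 (−0.13 to 0.14). The same held for the log2 fold changes of CLK3 (−0.10 to 0.21), DYRK1A (−0.33 to 0.0043) and SRPK2 (−0.22 to 0.0063), while SRPK1 (−0.32 to −0.013) and CLK2 (0.095 to 0.26) kept their sign. None of these genes and events was called without 1 library, and the cause was not tested. From reads not divided by effective lengths, ∆PSI of the 42 events was 0.51 to 2.02 times its value, over 1.5 times smaller in 17 and larger in 8, with no change of sign or call. With events sharing an exon summed, which can count a read more than once, the CLK4 form of 836 nt went from 5.22 to 9.79 points and the SRPK2 exon of 113 nt went from −9.50 to −2.03 points. The log2 fold change of KHDRBS1 was 1.95 to 2.01 throughout. No paired analysis was possible because the deposited lists carry no replicate numbers. Depth at the CLK4 exon of 59 nt was 33 to 50 reads per library, and the CLK1 retained intron (12 to 39) and the SRPK2 exon of 113 nt (5 to 22) had fewer at their lowest.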

Other observations

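Below the minimum of 10 reads lay 16 listed kinase events, which were not tested. In CLK4, the 59 nt exon was also listed downstream of the 67 nt exon, with 0, 0 and 0 inclusion reads in controls and 5, 3 and 4 in SAM68 libraries. Of these 12 reads, 10 are the reads of the shared donor that the other CLK4 events count too, and 2 joined the 67 nt exon to the 59 nt exon. In SRPK2, the 64 nt exon was also listed downstream of another exon of intron 2, with 3, 6 and 2 inclusion reads in controls and 8, 5 and 6 in SAM68 libraries. These overlap in part with the reads of the tested event. In CLK4, an event for retention of introns 3 and 4 with exon 4 held 5, 6 and 3 inclusion reads in controls and 0, 0 and 2 in SAM68 libraries, the same numbers as the tested event of intron 4.

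Among other genes of SR protein phosphorylation, a retained intron of PRPF4B had a PSI of 0% in each control library and 3.16%, 0.56% and 1.78% in SAM68 libraries (adjusted p = 0.222, quasi-binomial model). A skipped exon of SRRM2, a splicing coactivator rich in arginine and serine, stood at 3.16%, 2.41% and 1.42% in controls and lower, at 0.38%, 0.54% and 0.35%, in SAM68 libraries (adjusted p = 0.224, quasi-binomial model). A skipped exon of SRSF3, an SR protein, stood at 6.30%, 6.11% and 6.30% in controls and 8.04%, 8.82% and 7.41% in SAM68 libraries (adjusted p = 0.253, quasi-binomial model). The groups did not overlap in any of the 3 events, and none was called.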
